A study of Mus musculus with 11 samples.

Results

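Zinc finger proteins and chromatin regulators were examined in primary mouse enteric glial cell (msEGC) cultures that had been exposed to extracellular ATP. The 58 transcripts described came from 53 genes and were taken from the 2071 transcripts, of 1829 genes, that the deposited table of significant genes holds. A transcript was included when its gene symbol began with 1 of 18 prefixes (Zfp, Zbtb, Zkscan, Zscan, Klf, Kdm, Kmt, Hdac, Chd, Brd, Smarc, Arid, Setd, Phf, Ing, Med, Taf or Tet) and the gene had no row in the deposited gliosis, cytokine, motility or MAPK tables. Of these prefixes, 13 had listed transcripts and 5 (Hdac, Setd, Ing, Med and Tet) had none.

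The ATP group held 6 libraries and the control group 5 libraries of cultures without ATP. Per the study's methods, cells of the small bowel muscularis externa of C57BL/6 mice aged 8 to 16 weeks were grown as neurospheres for 4 days and differentiated for 7 days. The treatment label gives ATP at 100 µM for 6 h, and it does so for all 11 libraries, so the groups were read from the library titles, and no transgene was part of the experiment. Libraries were made by 3′ mRNA sequencing, which reads only the end of each transcript. The library codes formed 3 series: 3 ATP libraries in the first, 2 control libraries in the second and 3 of either group in the third. No source used here says what a code series stands for, so in the first 2 it cannot be told apart from the treatment.

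The deposited tables give, for each transcript, the authors' mean of each group and a total over all libraries. They hold no value per library, so neither the depth nor the spread between cultures is known here, and no group mean below carries an error. All 58 transcripts were chosen by their measured values, since every row of the source table had passed the authors' limits and the smallest fold between the means in it was 1.5. Their directions and sizes are therefore given as a description, without a test. "Higher" and "lower" mean that the ATP mean lay above or below the control mean. As these were bulk cultures, fewer cells of a type and less RNA per cell cannot be told apart.

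Finger proteins of the C2H2 type fold around zinc ions and read DNA sequence, and many of the Zfp genes recruit corepressors that silence chromatin. Chromatin regulators act on the nucleosome: enzymes write and remove marks on histone tails, bromodomain and PHD finger proteins read them, remodellers move nucleosomes with energy from ATP hydrolysis inside the cell, and the TAF proteins form TFIID, the factor that places RNA polymerase II at promoters. Enteric glia, the supporting cells of the gut's nervous system, become reactive on injury and inflammation, and extracellular ATP is a signal that they sense through purinergic receptors.

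Of the 58 transcripts, 37 were higher and 21 lower after ATP, a share of 63.8% higher against 47.8% of all listed transcripts. The higher share lay with the chromatin regulator families. Of their 23 transcripts, 19 were higher (82.6%), whereas the finger protein families had 18 higher of 35 (51.4%), close to the share over the whole table. The 23 transcripts came from 18 genes, however, while the 35 came from 35 genes. Brd2 and Chd2 gave 3 transcripts each and Chd1 gave 2, all higher, and transcripts of the same gene are not independent values. At least 2-fold higher were 16 transcripts (27.6%), against 20.4% of all listed transcripts, and at least 2-fold lower were 9 (15.5%), against 32.9% of all listed transcripts. The count of 16 depended on the scale: it was 9 when 1 was added to both means, and 32 when the ratios were brought to the scale of the gliosis table, a factor of 1.16. The median log2 ratio of the ATP mean to the control mean was 0.83 over the 58 transcripts and -0.64 over the whole table. As the median moves across the gap left by the 1.5-fold limit, it mainly restates which direction was more frequent.

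The size of the differences was moderate. The 37 higher transcripts had folds of 1.53 to 5.17 with a median of 1.93, and the higher transcripts of the whole table had a median of 1.90 and a highest fold of 41.04. The 21 lower transcripts were 1.51-fold to 3.75-fold lower with a median of 1.90, while the lower transcripts of the whole table had a median of 2.24 and reached 16.7-fold. Nearest to the limit of the table lay Zfp462-001 at 1.53-fold higher and Zfp414-006 at 1.51-fold lower, and values outside that limit are not in the table. ATP means ranged over 0.838 to 151 and control means over 0.494 to 90.7 of the deposited signal, a level that appears to be scaled for library depth. The 58 transcripts were about as abundant as the rest, with a median total of 116.2 against 126.7 over all listed transcripts.

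**Figure D1:**
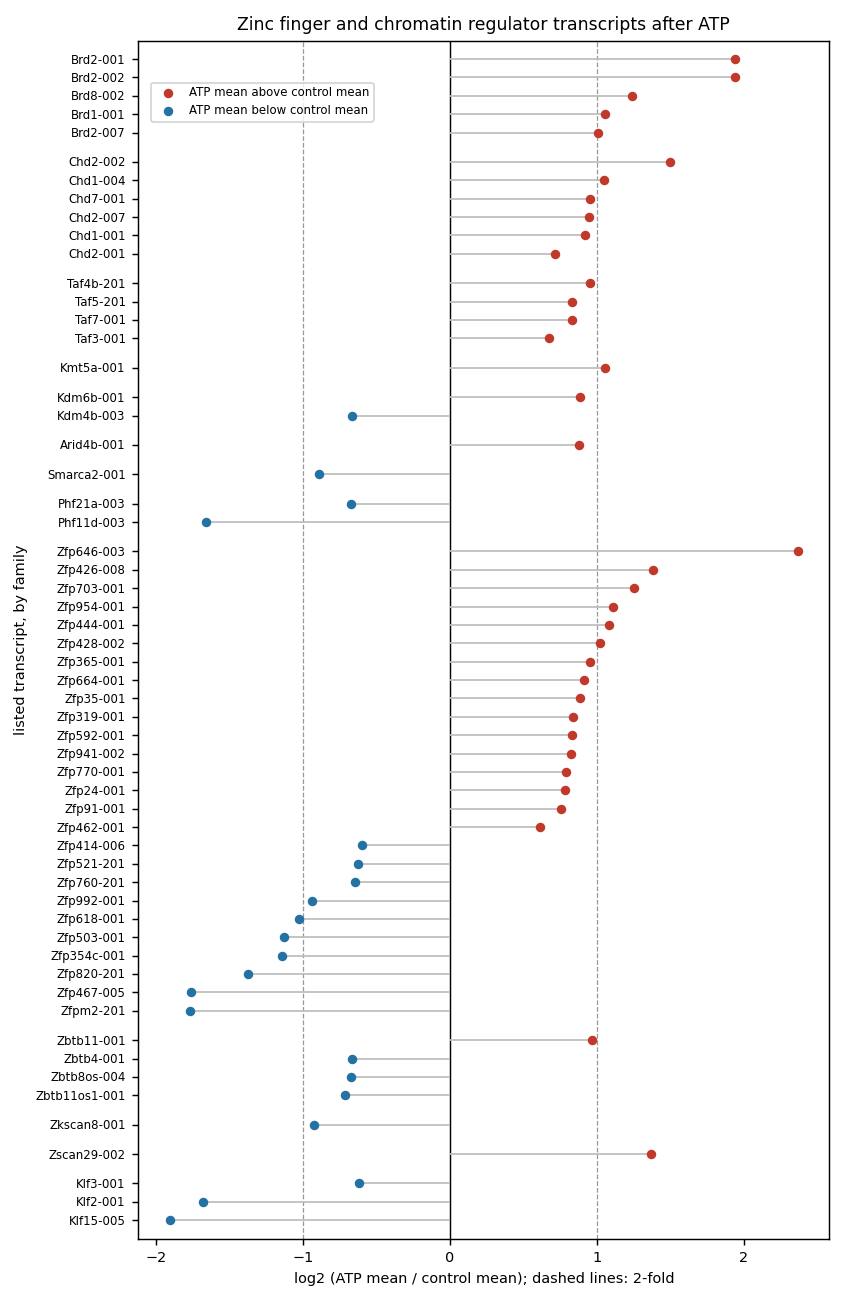
The log2 ratio of the ATP mean to the control mean (x axis) is shown for 57 of the 58 listed transcripts (y axis), ordered by family. Points right of 0 are higher after ATP, the dashed lines mark 2-fold, and all 15 points of Brd, Chd and Taf lie right of 0 while all 3 Klf points lie left of it.

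The Brd prefix names bromodomain proteins, which read acetylated histones. Its transcripts do not stand for all proteins with a bromodomain, since the count went by symbol. All 6 listed Brd transcripts were higher, against 47.8% of all listed transcripts, but they came from 4 genes, with 3 transcripts from Brd2. All 6 reached 2-fold, against 20.4% of all listed transcripts. With 1 added to both means 4 of 6 did, as Brd1-001 went to 1.98 and Brd2-007 to 1.93. Brd2 encodes a protein that binds acetylated histones and aids transcription. Brd2-001 had a mean of 74.4 in ATP cultures against 19.4 in control cultures, a ratio of 3.83 and the largest of the chromatin regulators. Brd2-002 had 22.3 in ATP cultures and 5.81 in control cultures, again 3.83, and Brd2-007 had 24.5 in ATP cultures and 12.2 in control cultures, a ratio of 2.01. The ratios of Brd2-001 and Brd2-002 differed by only 0.00027, so the pair may not be separate measurements, although both are in the counts. Summed over the 3 transcripts, Brd2 was 3.24-fold higher. Brd2 lies at chr17:34112023-34122634 on the minus strand of GRCm38.

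Brd8 and Brd1 were listed with 1 transcript each. Brd8-002, from a subunit of the TIP60 acetyltransferase complex, had 12.8 in ATP cultures and 5.44 in control cultures (2.36-fold). Brd1-001, from a scaffold protein of histone acetyltransferase complexes, had 22.5 in ATP cultures and 10.9 in control cultures (2.08-fold). Both ratios lay below those of Brd2-001 and Brd2-002 and above that of Brd2-007.

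PHD finger proteins read other histone marks. The 2 listed transcripts with the Phf prefix, which 22 genes carry in GENCODE, were both lower, as were 1082 of the 2071 transcripts in the whole table. They do not stand for all PHD finger proteins, since Taf3, described below, also has a PHD finger and was higher. Phf11d-003 had a mean of 3.18 in ATP cultures and 10.1 in control cultures (3.17-fold lower). Phf21a-003, from a member of the complex that holds the demethylase LSD1, had 16.2 in ATP cultures and 25.9 in control cultures (1.597-fold lower). Phf11d was the only chromatin regulator of the 23 transcripts that was at least 2-fold lower.

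In the Chd, Smarc and Arid families, 7 of 8 transcripts were higher, or 6 of 7 without Arid4b, which is not itself a remodeller. The CHD proteins are ATP-dependent remodellers with chromodomains, and all 6 of their transcripts, of 3 genes, were higher. Chd1-001 had a mean of 46.01 in ATP cultures and 24.4 in control cultures (1.89-fold), and Chd1-004 had 8.52 in ATP cultures and 4.12 in control cultures (2.07-fold). Chd2-001 had 54.3 in ATP cultures and 33.1 in control cultures (1.64-fold), Chd2-007 had 26.5 in ATP cultures and 13.8 in control cultures (1.93-fold), and Chd2-002 had 16.9 in ATP cultures and 6.00 in control cultures (2.82-fold). The transcripts of each gene thus lay on the same side, and summed per gene the ratios were 1.91 for Chd1 and 1.85 for Chd2. Of the 204 genes with several transcripts in the whole table, 11 had transcripts on both sides, so a shared side was the usual case. Chd7-001, from the gene mutated in CHARGE syndrome and needed in neural crest cells, had 40.05 in ATP cultures and 20.7 in control cultures (1.93-fold).

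**Figure D2:**
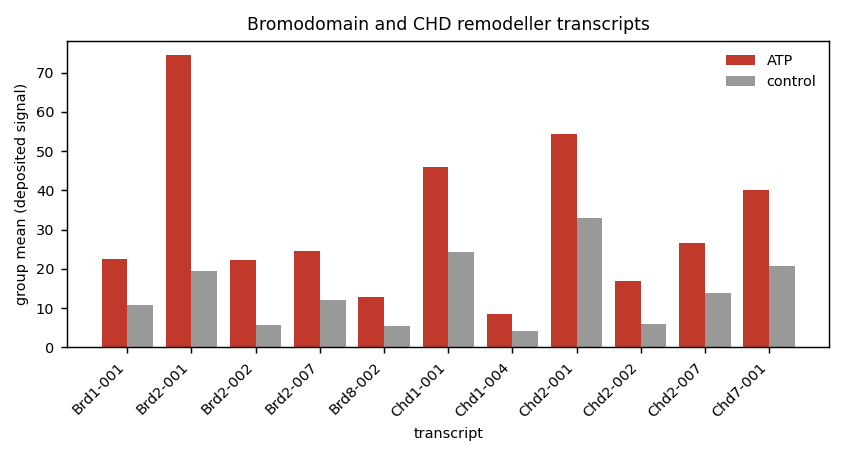
Bars give the authors' mean of the ATP group (red, left) and of the control group (grey, right) in units of the deposited signal for 11 Brd and Chd transcripts. The ATP bar is the taller one in all 11 pairs, and the widest gap is that of Brd2-001, at 74.4 against 19.4. The deposited means come without an error, so none is drawn.

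The Arid and Smarc families had 1 transcript each. Arid4b-001, from a subunit of the Sin3 corepressor complex, had a mean of 64.5 in ATP cultures and 35.1 in control cultures (1.84-fold). Smarca2-001, from BRM, an ATPase of the SWI/SNF complex, had 5.83 in ATP cultures and 10.8 in control cultures (1.85-fold lower). Actl6b-007, from a neuronal SWI/SNF subunit without one of the prefixes, had a mean of 2.59 in ATP cultures and 0.878 in control cultures (2.95-fold higher). Its level was low, with a total of 19.9, and no direction of the complex is read from either transcript.

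Of the enzymes that write or remove histone marks, 3 genes were listed. Kmt5a-001, from the enzyme that monomethylates histone H4, was the most abundant of the 23 chromatin regulator transcripts, with a mean of 101 in ATP cultures and 48.7 in control cultures (2.08-fold). Kdm6b-001, from the demethylase JMJD3 that removes the Polycomb mark, had 24.1 in ATP cultures and 13.0 in control cultures (1.85-fold). Kdm4b-003, from a demethylase of heterochromatin marks, had 6.40 in ATP cultures and 10.2 in control cultures (1.59-fold lower). The pair of demethylases, which act on different residues, lay on opposite sides.

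The 4 listed TAF genes, subunits of TFIID, were all higher, against 47.8% of all listed transcripts. None of them reached 2-fold on the deposited scale, and 3 of 4 did on the scale of the gliosis table. Taf3-001, whose protein reads an active promoter mark with a PHD finger, had a mean of 49.2 in ATP cultures and 30.8 in control cultures (1.599-fold). Taf7-001 had 9.30 in ATP cultures and 5.23 in control cultures (1.78-fold), and Taf5-201, a scaffold subunit with WD repeats, had 6.31 in ATP cultures and 3.54 in control cultures (1.78-fold). Taf4b-201, a paralogue of TAF4 best known from the gonads, had 4.32 in ATP cultures and 2.23 in control cultures (1.93-fold). Except for Taf3 these were low levels, with neither mean reaching 10. Counted together after the values had been seen, Chd, Brd and Taf gave 16 higher of 16 transcripts in 11 genes. The other 42 transcripts gave 21 higher and 21 lower, near the 47.8% higher of the whole table.

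**Figure D3:**
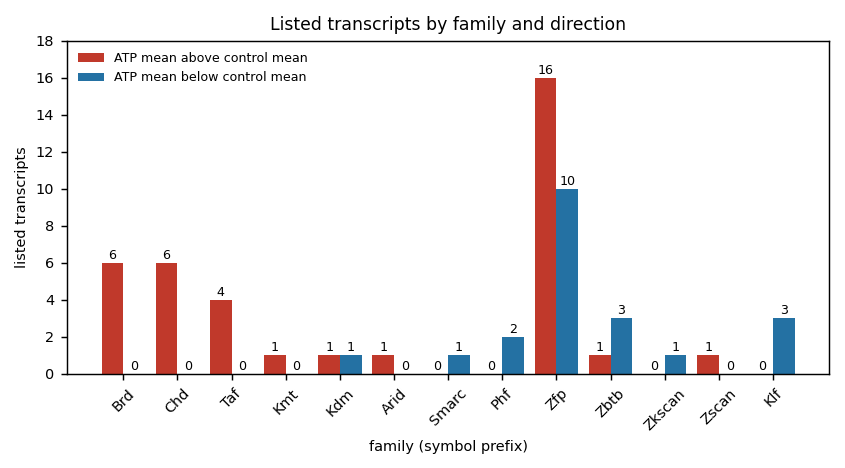
The number of listed transcripts (y axis) is given for each symbol prefix (x axis), with those higher after ATP in red on the left and those lower in blue on the right. Brd, Chd and Taf have 6, 6 and 4 higher transcripts and none lower, Klf has 3 lower and none higher, and Zfp has 16 higher and 10 lower.

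The finger proteins did not share a direction. The 3 listed transcripts of Krüppel-like factors were all lower, as were 1082 of the 2071 transcripts in the whole table. They came from 3 of the 17 Klf genes in GENCODE, and the other Klf genes were not listed. These factors bind GC-rich promoters with 3 C-terminal fingers, and each of the 3 listed proteins held 3 finger motifs. Klf2-001, from a factor known for its response to blood flow in endothelium, had a mean of 9.01 in ATP cultures and 28.8 in control cultures (3.20-fold lower). Klf15-005, from a target of glucocorticoids in many tissues, had 1.07 in ATP cultures and 4.01 in control cultures (3.75-fold lower). Klf3-001, from a repressor that recruits CtBP, had 51.1 in ATP cultures and 78.4 in control cultures (1.53-fold lower). Klf15 had the largest fold of all 21 lower transcripts, at a level where adding 1 to both means reduced it to 2.42-fold. Klf2 lies at chr8:72319033-72321656 and Klf15 at chr6:90462576-90475238.

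The 4 transcripts with the Zbtb prefix gave 1 higher and 3 lower. ZBTB proteins join a BTB domain, through which they pair and recruit corepressors, to C2H2 fingers. Zbtb11-001 had a mean of 24.5 in ATP cultures and 12.5 in control cultures (1.96-fold), and Zbtb4-001, whose protein binds methylated DNA, had 55.6 in ATP cultures and 88.1 in control cultures (1.59-fold lower). The remaining pair carries the prefix only by position. Zbtb11os1 is an RNA gene on the opposite strand of Zbtb11, with 3.69 in ATP cultures and 6.05 in control cultures (1.64-fold lower). Zbtb8os encodes archease, a cofactor of tRNA splicing, with 12.1 in ATP cultures and 19.2 in control cultures (1.59-fold lower).

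Zbtb11 and Zbtb11os1 lay on opposite sides although they share a start region. Zbtb11os1 spans chr16:55973268-55974617 on the minus strand and Zbtb11 spans chr16:55973883-56008913 on the plus strand, an overlap of 735 bases in GENCODE. The 3′ kit keeps strand, but no source used here says whether the counting used it. Without these opposite-strand genes, 66.1% of the transcripts were higher.

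The SCAN domain families had 1 transcript each. Zkscan8-001 had a mean of 5.28 in ATP cultures and 10.04 in control cultures (1.90-fold lower). Zscan29-002 had 1.87 in ATP cultures and 0.725 in control cultures (2.58-fold higher), and its ratio was 1.66 once 1 was added to both means. Zscan29-002 also had a total of 14.8, the lowest of the 58.

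The Zfp family was the largest, with 26 transcripts of as many genes, of which 16 were higher (61.5%) and 10 lower. The most abundant was Zfp91-001, from a protein also known as a ubiquitin ligase of the non-canonical NF-κB pathway, with a mean of 151 in ATP cultures and 89.4 in control cultures (1.69-fold). Of the higher transcripts with a mean of at least 10 in a group, Zfp703-001 had the largest ratio, with 52.1 in ATP cultures and 21.9 in control cultures (2.38-fold). Zfp703 and Zfp503 both belong to the NET family of transcriptional repressors, whose fingers are atypical. Zfp503-001 lay on the other side, with 41.5 in ATP cultures and 90.7 in control cultures (2.18-fold lower). Zfp703 lies at chr8:26977325-26981461 and Zfp503 at chr14:21983959-21989601, and no C2H2 motif was found in either protein.

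**Figure D4:**
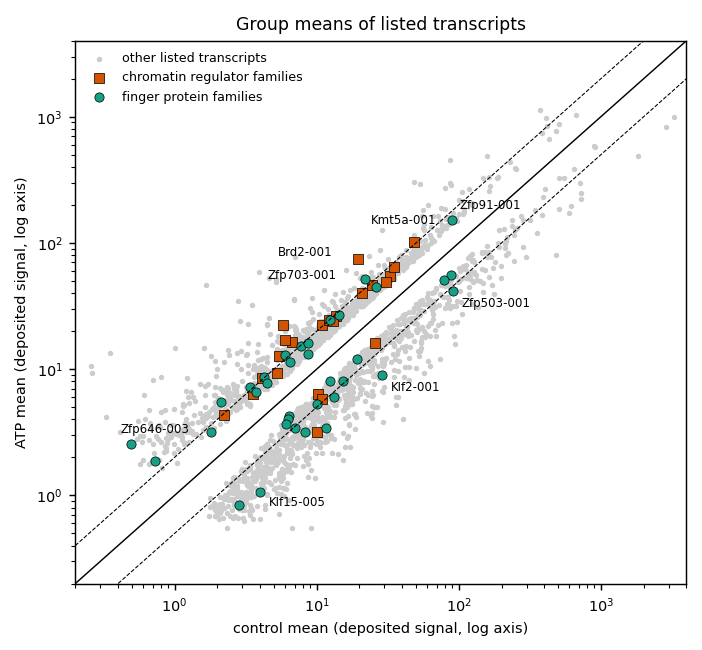
The ATP mean (y axis) is plotted against the control mean (x axis) for all listed transcripts, in units of the deposited signal on log axes. Squares are the 23 chromatin regulator transcripts, circles the 35 finger protein transcripts and grey dots the rest, with the solid line at equal means and dashed lines at 2-fold. The empty band along the solid line is the 1.5-fold limit of the table, and Zfp703 and Zfp503, at 52.1 and 41.5 in ATP cultures, lie on opposite sides of it.

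Next in ratio among the higher Zfp transcripts with a mean of at least 10 came Zfp954-001, with a mean of 12.9 in ATP cultures and 5.94 in control cultures (2.16-fold). Zfp365-001, from a protein known at the centrosome, had 15.1 in ATP cultures and 7.79 in control cultures (1.94-fold). Zfp664-001 had 26.9 in ATP cultures and 14.3 in control cultures (1.88-fold), and Zfp35-001 had 15.98 in ATP cultures and 8.63 in control cultures (1.85-fold). Zfp24-001, from a gene needed in mice for myelination by oligodendrocytes, had 45.1 in ATP cultures and 26.2 in control cultures (1.72-fold). Apart from Zfp703 and Zfp954, none of the higher transcripts named so far in this family reached 2-fold.

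The largest ratios of the family were at low levels. Zfp646-003 had a mean of 2.55 in ATP cultures and 0.494 in control cultures, a ratio of 5.17 that became 2.38 when 1 was added to both means. Zfp426-008 had 5.54 in ATP cultures and 2.13 in control cultures (2.60-fold). Zfp444-001 had 7.17 in ATP cultures and 3.39 in control cultures (2.11-fold), and Zfp428-002 had 8.72 in ATP cultures and 4.29 in control cultures (2.03-fold). Zfp646, Zfp426 and Zfp428 were picked out for their ratios after the values had been seen. The other 5 higher Zfp transcripts, Zfp319, Zfp462, Zfp592, Zfp770 and Zfp941, lay between 1.53-fold and 1.79-fold.

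Among the lower Zfp transcripts, Zfpm2-201 had the largest fold. It encodes FOG2, a cofactor of GATA factors, and had a mean of 3.41 in ATP cultures and 11.6 in control cultures (3.41-fold lower). Zfp354c-001 had 6.03 in ATP cultures and 13.3 in control cultures (2.21-fold lower), and Zfp992-001 had 8.04 in ATP cultures and 15.4 in control cultures (1.91-fold lower). Zfp521-201, from a factor that acts in neural and mesenchymal progenitors, had 8.04 in ATP cultures and 12.4 in control cultures (1.54-fold lower). At lower levels, Zfp467-005 had 0.838 in ATP cultures and 2.85 in control cultures (3.401-fold lower, or 2.09-fold with 1 added to both means), Zfp820-201 had 3.19 in ATP cultures and 8.28 in control cultures (2.60-fold lower), and Zfp618-001 was 2.03-fold lower. Zfp760-201 and Zfp414-006 were 1.57-fold and 1.51-fold lower.

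The number of fingers did not separate the directions. In the translated longest coding sequences of GENCODE, the 18 higher finger protein genes held a median of 8.5 C2H2 motifs (0 to 33) and the 15 lower ones, without the opposite-strand genes Zbtb11os1 and Zbtb8os, a median of 5 (0 to 27). Motif counts of 10 or more were found in 38.9% of the higher genes and 40% of the lower ones, against 47.2% of all 485 genes of these families. The highest counts were 33 in Zfp462, which was higher, 27 in Zfp646, which was also higher, and 27 in Zfp521, which was lower. These counts describe the encoded proteins and do not bear on the RNA levels.

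The promoters were searched for the cAMP response element, since calcium and cAMP signals act on it through CREB. RefSeq windows on GRCm38.p6, running from 250 bases before to 50 bases after each start site, were matched to 35 of the 53 genes and gave 40 windows. The palindrome TGACGTCA was found in 2 of 40 windows (5%), against 53 of 1759 windows (3.01%) of all listed genes and 588 of 32851 windows (1.79%) of all promoters. Both hits were in genes that were higher, Zfp426 and Zbtb11. Their surroundings are shown with the element in capitals, on the strand of the gene.
Zfp426, chr9:20492747-20492808 (minus strand): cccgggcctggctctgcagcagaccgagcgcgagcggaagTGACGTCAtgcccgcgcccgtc
Zbtb11, chr16:55973670-55973731 (plus strand): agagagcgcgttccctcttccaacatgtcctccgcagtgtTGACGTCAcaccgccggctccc

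The element began 22 bases before the start site in Zfp426 and 94 bases before it in Zbtb11, where it lies inside the span of Zbtb11os1. The AP-1 element TGANTCA, which the palindrome does not contain, was found in 1 of 40 windows (2.50%), that of Smarca2. Its share was 5.23% in the windows of all listed genes and 7.81% in all promoters. CCAAT, read on both strands like the other motifs, was present in 14 windows (35.0%). Its share was 36.3% in the windows of all listed genes and 37.4% in all promoters. A match shows only that the letters are there, and with 2 hits no share can be told from the background. The windows were rich in G and C, with a median of 61.3% in higher and 65.7% in lower genes, against 61.7% over all listed genes and 52.7% over all promoters.

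The 53 genes lay on 16 chromosomes, and 8 pairs of them were neighbours within 1000000 bases. Zfp35 and Zfp24 were 4326 bases apart on chromosome 18 and both higher, and Zfp760 and Zfp820 were 91249 bases apart on chromosome 17 and both lower. Kmt5a with Zfp664 on chromosome 5 and Zfp444 with Zfp954 on chromosome 7 were also both higher. The pairs Kdm6b with Zbtb4, Zbtb11 with Zbtb11os1, Brd2 with Zfp414 and Taf4b with Zfp521 each held 1 higher and 1 lower gene. Neighbours thus shared a side in 4 of 8 pairs. All 7 genes on chromosome 7 were higher, a count noticed after the values had been seen.

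As the reads come from the 3′ end, other genes there could add to a value. A further annotated gene overlapped the last 500 bases of 13 of the 53 genes. It was on the same strand for 2 of them, Zfp91 with Cntf and Zfp414 with Gm20507. Their part in the values was not tested.

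To set these families beside their surroundings, other chromatin genes without these prefixes were counted in the same table. Of a list of 90 genes, 19 had rows there. Of their 22 transcripts, 19 were higher, against 47.8% of all listed transcripts, with a median log2 ratio of 0.79. This list had been drawn up with earlier results known, so its counts are a description and are not read as a direction of chromatin genes. All 5 Polycomb transcripts, all 5 of the methyltransferase group and all 5 of a remodeller group (ISWI and INO80 genes with Actl6b) were higher. Ezh2-013, from the Polycomb methyltransferase, had a mean of 3.06 in ATP cultures and 1.36 in control cultures (2.26-fold). Dnmt1-202, from the maintenance DNA methyltransferase, had 15.1 in ATP cultures and 6.97 in control cultures (2.17-fold). Wdr5-001, from a core subunit of the MLL complexes, had 38.8 in ATP cultures and 20.0 in control cultures (1.93-fold). The corepressor group split, with Gatad2a and Rbbp4 higher and Ncor1 and both Mta3 transcripts lower. The Mta3 transcripts both had a ratio of 0.302 at low levels, with ATP means of 0.876 and 0.760 and control means of 2.90 and 2.52. In the remodeller group both Baz2a transcripts had a ratio of 1.55. Either pair may not be separate measurements, although all are in the counts.

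Genes with C2H2 fingers but without these prefixes were found by translating the coding sequences of 1655 of the 1829 listed genes, a step added after the values had been seen. With 2 or more motifs in the protein there were 19 transcripts of 18 genes, of which 6 were higher (31.6%) and 13 lower, with a median log2 ratio of -0.81. Tshz1-001, from a developmental repressor with widely spaced fingers, was the most abundant, with a mean of 170 in ATP cultures and 100.2 in control cultures (1.69-fold). Mtf1, from the metal-responsive factor that induces metallothioneins, was higher in both of its transcripts, by 1.64-fold and 2.71-fold. Repin1, Fiz1 and Dnajc21, a ribosome assembly factor, were the other higher genes.

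The largest folds of this group, those of Osr1 and Hic1, were in the lower direction. Osr1-201, from a factor of mesenchymal progenitors, had a mean of 6.07 in ATP cultures and 37.4 in control cultures (6.15-fold lower). Hic1-001, from a repressor that marks quiescent mesenchymal cells, had 3.71 in ATP cultures and 16.8 in control cultures (4.55-fold lower). Zeb1-001, from a repressor of epithelial genes, had 56.3 in ATP cultures and 88.7 in control cultures (1.57-fold lower). A list of 51 other C2H2 factors, which had been drawn up with earlier results known, caught only these 3 and Ikzf4, Snai2 and Sp3, all lower, and none of the higher genes, so its count is not read as a direction.

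**Figure D5:**
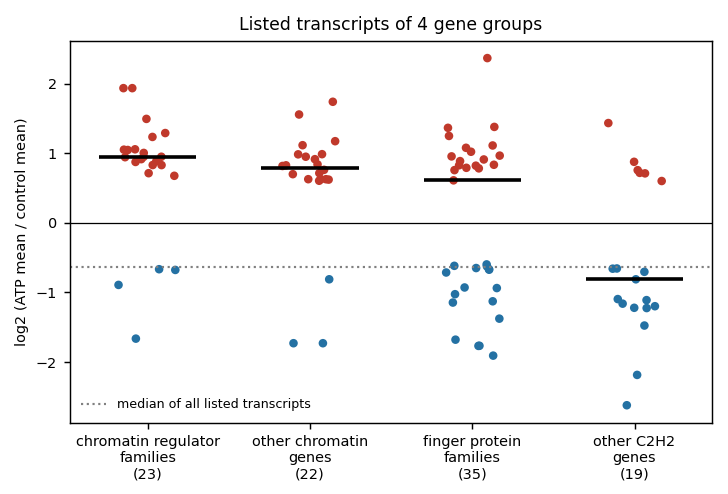
Points give the log2 ratio of the ATP mean to the control mean (y axis) of each listed transcript of 4 gene groups (x axis, with the number of transcripts), red above 0 and blue below, and bars give medians. The 23 chromatin regulators and the 22 transcripts of other chromatin genes lie mostly above 0, the 35 finger protein transcripts lie on both sides, and the 19 transcripts of other C2H2 genes lie on both sides with 13 below 0. The list of other chromatin genes was drawn up with earlier results known. The dotted line at -0.64 is the median of all listed transcripts.

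Fibroblast markers were lower in the same table. Of 7 fibroblast markers, 2 genes were listed with 3 transcripts, all lower, and their summed means were 829 in ATP cultures and 2881 in control cultures, nearly all of it from Col3a1-001 with 826 in ATP cultures and 2870 in control cultures. Of 6 neuronal markers, Ret and Uchl1 were listed and higher, with summed means of 169 in ATP cultures and 90.8 in control cultures. Of 7 glial markers only Gfap was listed, with a deposited mean of 108 in ATP cultures and 64.5 in control cultures. Its total fits these means only when the group sizes are exchanged, so nothing is drawn from its direction. Smooth muscle, macrophage and endothelial markers had no row in this table. The gliosis table, on its own scale, holds the macrophage marker Cd68-001, with 43.05 in ATP cultures and 22.6 in control cultures, and the fibroblast marker Dcn-202, with 22518 in ATP cultures and 51612 in control cultures. The part of a changed cell composition in the directions of the finger proteins was not tested.

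The deposited table of GO terms counts genes of a list by the authors that the sources used here do not name. Of the 14445 genes of the root term cellular_component, 1980 (13.7%) were in that list. The root terms for processes and functions were not looked up, so this share stands beside all terms below. The share was 16.9% for chromatin organization (92 of 544 genes), 19.7% for chromatin remodeling (23 of 117), 16.6% for histone modification (48 of 289) and 15.7% for zinc ion binding (90 of 574). It was 26.5% for the TFIID complex (9 of 34) and 5.56% for the mediator complex (2 of 36). For chromosome organization it was 12.7% (33 of 260). Apart from that term, the larger chromatin terms lay slightly above the share of the root term, without regard to direction. The TFIID and mediator terms, which lay farthest from that share on either side, hold few genes.

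A prefix without a listed transcript does not mean that its genes were silent or unchanged, since a gene without a row may have been undetected or under the limits. GENCODE annotates 30 genes with the Med prefix, 11 with Hdac, 10 with Setd, 5 with Ing and 3 with Tet. The Hdac and Ing families had genes in the gliosis, cytokine, motility or MAPK tables, which the rule left out.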

How the data were processed

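Libraries of 6 ATP and 5 control msEGC cultures were prepared with a QuantSeq 3′ kit and sequenced as 50 bp single-end reads, and the authors processed them in Partek. No source used here gives the aligner, build, annotation or scaling. Of the 6 deposited tables, 5 list transcripts. In the gliosis table the deposited means and totals appear to be estimated counts, and in the other 4 they are a signal scaled by the authors in a way not stated, probably for depth. The deposited GO table gives counts of genes per term. The deposited p-values, ratios and fold changes are the authors' own comparison and were not used.

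The ratio of the ATP mean to the control mean was computed here, with no pseudocount. For all 58 transcripts the total matched the sum of both means, each multiplied by its number of libraries, to a relative difference of 6.36e-15. No test was run, because the files hold no value per library and the transcripts were chosen by these values. Members, lists and the naming rule were chosen with earlier results of these data known. Genes named were all transcripts of genes with 2 or more listed transcripts, of families with at most 6, of neighbouring pairs, and in Zfp the 5 highest and 5 lowest ratios with a mean of at least 10 and the 3 largest totals. Other Zfp genes were named after their values were seen, and 1 transcript is in the counts but is not reported here by name. Positions and C2H2 motifs (C, 2 to 4 residues, C, 12 residues, H, 3 to 5 residues, H) came from GENCODE M21 (GRCm38), with proteins translated from its coding sequences in place of a RefSeq protein table, and promoters from RefSeq. All 53 genes were found in GENCODE. Python 3.11.15 and pandas 2.3.3 were used, and counting steps were tested on simulated data.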

Additional observations from a re-analysis of the deposited data

How the results depend on the processing

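Without values per library, depth and replicate error are unknown, leaving out each library in turn was not possible, and no paired analysis was possible because no result comes from a test. The share of transcripts higher after ATP (63.8%) stayed within 60.4% and 73.5% under 8 alternatives: 1 transcript per gene, summed genes, 3 filters, the scaling factor, added prefix genes and no opposite-strand genes. The count at least 2-fold higher (16) was 9 with a pseudocount of 1, 10 where 1 mean had to reach 10, 3 at 3-fold, and 32 when ratios were multiplied by 1.16, the factor between the gliosis table and the others over 49 shared transcripts (0.21 on the log2 scale). The count at least 2-fold lower (9) was 5 at 3-fold and 5 where 1 mean had to reach 10. The median log2 ratio (0.83) was 0.72 with the pseudocount and 1.04 with the factor. Of the 58 ratios, the pseudocount moved 4 by over 1.5 times (Klf15, Zfp467, Zfp646 and Zscan29), and the factor of 1.16 could move none by that much. No direction reversed in the 178 alternative values computed. For single ratios this was fixed in advance. Adding 1 to both means cannot carry a ratio across 1, and the factor cannot reverse a fold of 1.5 or more. For the same reason the share under the scaling factor could not change. The count of Chd, Brd and Taf together was added after seeing the data.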

Other observations

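The rule left out 5 genes with a listed prefix because they also stand in the gliosis, cytokine, motility or MAPK tables. Their transcripts in the table of significant genes gave 2 higher and 3 lower. Hdac4-001, from a class IIa histone deacetylase, had a mean of 35.3 in ATP cultures and 21.9 in control cultures (1.61-fold higher), and Hdac7-010, from the same class, had 46.7 in ATP cultures and 76.6 in control cultures (1.64-fold lower). Smarca5-001, from the ISWI ATPase, had 79.9 in ATP cultures and 48.9 in control cultures (1.63-fold higher). Ing2-003, from a PHD finger subunit of a Sin3 complex, had 1.15 in ATP cultures and 5.11 in control cultures (4.43-fold lower). Zfp36l1-201, whose protein binds AU-rich RNA rather than DNA, had 132 in ATP cultures and 255 in control cultures (1.93-fold lower).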
